A study of Mus musculus with 24 samples.

Results

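A set of 9 genes of the Notch pathway were followed in cultured mouse alveolar epithelial cells. They were the receptors Notch1, Notch2 and Notch3, the ligands Jag1, Jag2 and Dll1, and the targets Hes1, Hey1 and Nrarp. The set was chosen by gene name as rows of the deposited count table, which held 55421 Ensembl genes, and all 9 passed the filter on low counts that left 18046 genes for testing.

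Type 2 alveolar epithelial cells (AEC2s), the surfactant-secreting progenitors of the alveolus, were isolated from Krt8+/+ mice (labelled WT) or from mice that lack keratin 8 in every tissue, Krt8-/- (labelled KO). Bulk RNA was sequenced on the day of isolation (day 0) and after 1, 3 or 7 days of growth in 2D. In such culture AEC2s are known to leave the AEC2 state, pass through a keratin-rich transitional state and gain features of type 1 cells (AEC1s). Each of the 8 groups of genotype and day held 3 libraries, 1 from each of 3 isolation rounds, so 24 libraries were compared. A round, called an isolation below, covered all days and both genotypes, whose cells came from different mice. Its libraries share the date in their labels. The age and strain of the mice, and whether cells of several mice were pooled, were not given in the sources used here. The question for these genes was how the receptors, ligands and targets of 1 pathway behave as AEC2s differentiate, and whether loss of Krt8 alters this.

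Notch receptors are transmembrane proteins that are activated by ligands of the Jagged and Delta families on a neighbouring cell. Cleavage by a metalloprotease and then by gamma-secretase frees the intracellular domain, which enters the nucleus and, with the DNA-binding protein RBPJ, switches on targets such as the HES and HEY repressors and the feedback inhibitor Nrarp. In the lung the pathway is known for its part in the choice between secretory and ciliated cells in the airway and for a role in alveolar formation.

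The libraries held between 10184439 and 19483386 counts each. The labels of genotype matched the targeted gene: Krt8 ranged from 485 to 5092 CPM (counts scaled to library size, with the trimmed mean of M values as the scaling) in Krt8+/+ libraries and from 21.2 to 47.5 CPM in Krt8-/- libraries. The summed level of 10 AEC2 markers was 259900 to 359600 CPM in Krt8+/+ AEC2s on day 0 and 225 to 3225 CPM on day 7. Endothelial markers summed to 28.5 to 32.6 CPM in Krt8+/+ cells on day 0 and to 3.48 to 3.98 CPM on day 7, when 4 of the 8 (Pecam1, Tie1, Emcn and Cldn5) were at 0. Over the 24 libraries Kdr reached 23.1 CPM and Egfl7 11.85 CPM in this list. Cdh5, Tie1, Emcn and Cldn5 each stayed at or below 1.223 CPM, and only 4 of the 8 markers passed the filter on low counts. In bulk samples, fewer cells of a type and less RNA per cell cannot be told apart.

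On day 7, 5 of the 9 genes had changed in Krt8+/+ cells and 6 of 9 in Krt8-/- cells. The receptor Notch1, the ligands Jag1 and Jag2 and the target Hey1 fell in both genotypes, and the ligand Dll1 rose in both. Hes1, the most abundant of the 9 per length, did not pass the test on any day against day 0. Calls are at an adjusted p under 0.05 by edgeR's quasi-likelihood test over all 18046 genes, and beside them 58.8% of all genes were called in Krt8+/+ cells (28.6% higher and 30.2% lower) and 58.5% in Krt8-/- cells (28.6% higher and 29.9% lower). The share of the 9 genes called was therefore near that of all genes. Each call of the 9 genes between days ran the same way in 3 of 3 isolations. All day contrasts within a genotype share the same day 0 libraries.

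Coordinates are given on the GRCm38 build with GENCODE M21 gene models. Notch1 (ENSMUSG00000026923) lies on the minus strand at chr2:26457903-26516663, Jag1 (ENSMUSG00000027276) on the minus strand at chr2:137081456-137116644, and Dll1 (ENSMUSG00000014773) on the minus strand at chr17:15367354-15376872. RefSeq sequences (GRCm38.p6) of the bases before the transcription start were matched by symbol for 7 of the 9 genes, in 8 entries, with none for Hes1 and Hey1. The stretches for Notch1 and Jag1, which fell in culture, and for Dll1, which rose, are printed 5′ to 3′ on the gene's strand without bases that lie in the gene's own annotated exons, at chr2:26503825-26504072, chr2:137116645-137116770 and chr17:15376933-15377182. The Notch1 stretch lies before the RefSeq start and inside the longer GENCODE span of the gene. Capitals mark letters of the motifs that were searched on both strands.
Notch1: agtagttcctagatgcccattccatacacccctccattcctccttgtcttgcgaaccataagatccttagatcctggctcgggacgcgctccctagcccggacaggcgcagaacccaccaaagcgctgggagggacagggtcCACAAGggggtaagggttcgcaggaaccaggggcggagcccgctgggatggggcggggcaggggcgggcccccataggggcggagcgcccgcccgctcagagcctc
Jag1: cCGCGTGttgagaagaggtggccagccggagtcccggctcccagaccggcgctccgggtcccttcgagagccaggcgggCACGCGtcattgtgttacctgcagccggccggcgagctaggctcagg
Dll1: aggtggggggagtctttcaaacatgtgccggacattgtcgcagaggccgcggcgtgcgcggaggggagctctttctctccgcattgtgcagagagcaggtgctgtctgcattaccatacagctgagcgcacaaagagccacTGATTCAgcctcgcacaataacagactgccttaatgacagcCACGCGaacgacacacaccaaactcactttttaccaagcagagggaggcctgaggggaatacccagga

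The capitals in the Notch1 stretch are an N box (CACNAG), a binding sequence of HES proteins, 108 bases before the start. Those in the Jag1 stretch are matches to CACGNG, a sequence bound by HES and HEY proteins, 249 and 171 bases before the RefSeq start. The printed Jag1 stretch ends 125 bases before that start. The 124 bases left out lie in the gene's own GENCODE exons, so the GENCODE start is nearer to these matches. The Dll1 stretch held 1 match to CACGNG at 68 bases and 1 to the AP-1 motif TGANTCA at 109 bases. CACGNG was present within 250 bases of 23.5% of the 32851 promoters in the RefSeq table and in 6 of the 8 entries of these genes, and CACNAG in 36.7% of all and in 4 of the 8. The 2 motifs share the letters CACGAG, which occurred once, in the Notch3 entry. TGANTCA was present in 6.75% of all promoters and in 1 of the 8 entries. The RBPJ core TGGGAA, present in 21.6% of all promoters, was not found in these windows of the 8 entries. A match of letters is a description and not evidence of binding.

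**Figure D1:**
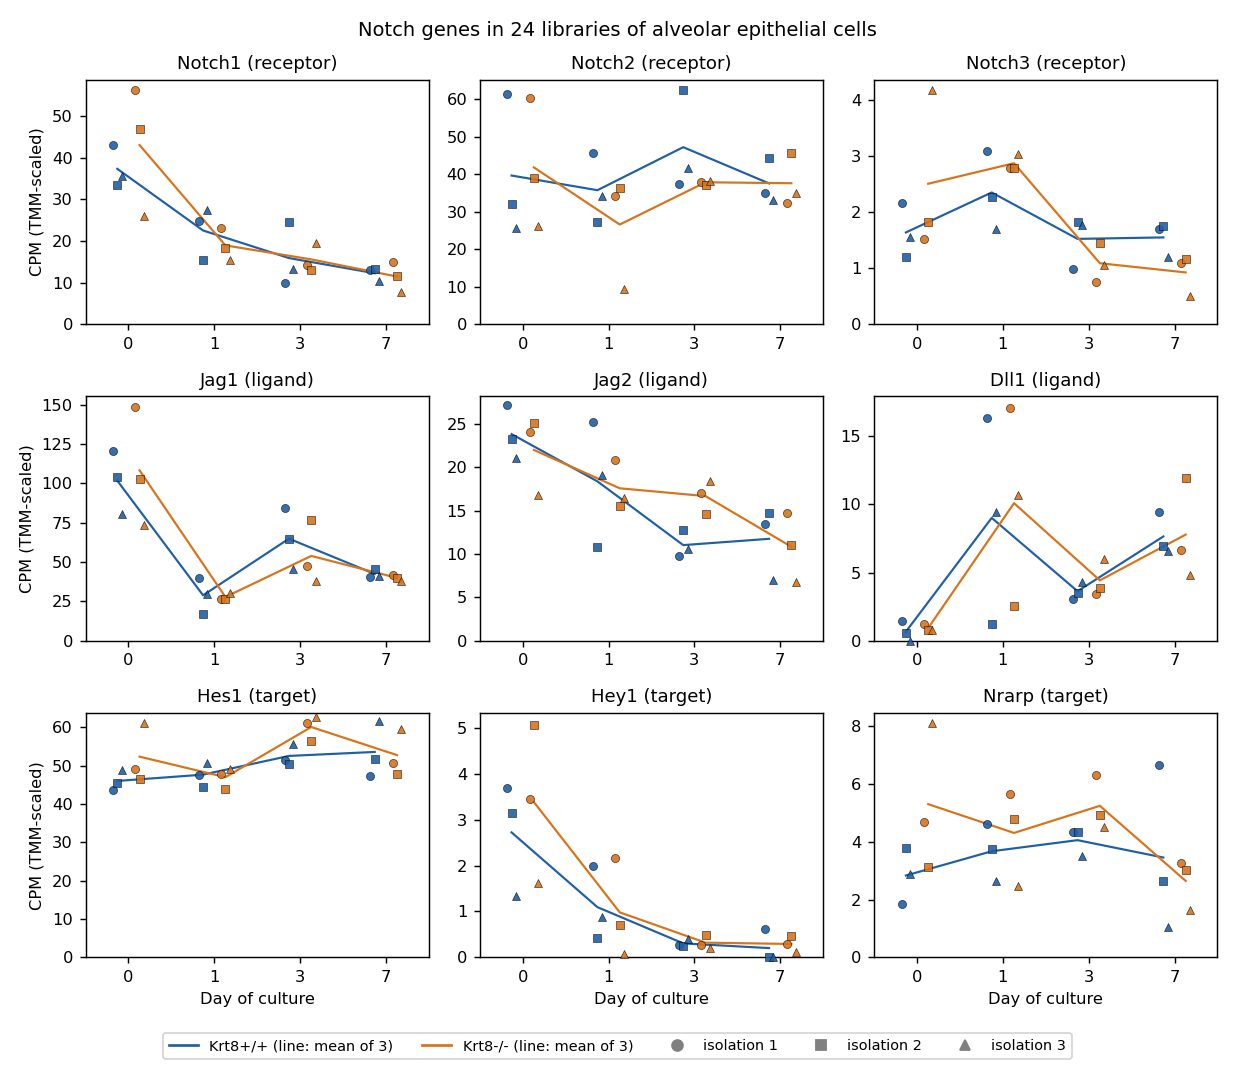
Level of each of the 9 genes (y axis, CPM from 0) in every library by day of culture (x axis). Colours give the genotype, marker shapes the isolation and lines the mean of 3 libraries, and Notch1, Jag1, Jag2 and Hey1 lie lower on day 7 than on day 0 in both genotypes while Dll1 lies higher.

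Notch1 fell with time in culture. In Krt8+/+ cells it measured 42.9, 33.4 and 35.6 CPM in isolations 1, 2 and 3 on day 0, 24.7, 15.4 and 27.4 CPM on day 1, 9.84, 24.6 and 13.2 CPM on day 3, and 13.1, 13.3 and 10.3 CPM on day 7. Every culture library lay below every day 0 library of that genotype. The log2 fold change was -0.73 ± 0.32 (SE, n = 3 per group, edgeR adjusted p = 0.0615) on day 1, -1.23 ± 0.33 (adjusted p = 0.00314) on day 3 and -1.61 ± 0.33 (adjusted p = 0.000294) on day 7, when the level was 3.05-fold lower. Without isolation 3 the day 1 change passed the threshold (adjusted p = 0.0491), and without isolation 1 the day 3 change did not (adjusted p = 0.0888). Over all alternatives the adjusted p of the day 1 change reached 0.303.

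Notch1 in Krt8-/- cells measured 56.3, 46.9 and 25.9 CPM on day 0, 23.1, 18.3 and 15.3 CPM on day 1, 14.3, 12.9 and 19.4 CPM on day 3, and 15, 11.5 and 7.78 CPM on day 7. The day 0 libraries differed by isolation, with isolation 3 lowest, and still lay above all culture libraries. The log2 fold changes were -1.19 ± 0.33 (edgeR adjusted p = 0.00478), -1.47 ± 0.33 (adjusted p = 0.000802) and -1.91 ± 0.33 (adjusted p = 5.12e-05) on days 1, 3 and 7. The day 1 call was lost without isolation 2 (adjusted p = 0.0555). Notch1 is a receptor that endothelial cells also express, and the summed endothelial markers of Krt8-/- cells moved from 31.5 to 43.5 CPM on day 0 to 2.73 to 5.74 CPM on day 7. Their part in the fall of Notch1 was not tested.

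Notch2 (ENSMUSG00000027878, plus strand, chr3:98013527-98150361), a receptor close in structure to Notch1, did not pass the test in any comparison. It measured 61.4, 31.9 and 25.6 CPM in Krt8+/+ cells on day 0 and 35.1, 44.4 and 33.1 CPM on day 7, and in Krt8-/- cells 60.4, 38.9 and 26.2 CPM and 32.2, 45.6 and 35 CPM. Isolation 1 was highest on day 0 in both genotypes, and the days overlapped. The log2 fold change on day 7 was -0.09 ± 0.39 in Krt8+/+ cells and -0.16 ± 0.39 in Krt8-/- cells (edgeR adjusted p = 0.865 and 0.754). One Krt8-/- library, isolation 3 on day 1, was low at 9.34 CPM.

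Notch3 (ENSMUSG00000038146, minus strand, chr17:32120820-32166852), a receptor best known from pericytes and vascular muscle, was scarce, with 8 to 54 counts a library. In Krt8+/+ cells it measured 2.16, 1.19 and 1.55 CPM on day 0 and 1.70, 1.74 and 1.19 CPM on day 7, with a log2 fold change of -0.10 ± 0.44 (edgeR adjusted p = 0.862). Krt8-/- cells gave 1.51, 1.82 and 4.17 CPM on day 0, 2.78, 2.79 and 3.04 CPM on day 1, 0.754, 1.45 and 1.06 CPM on day 3 and 1.09, 1.17 and 0.510 CPM on day 7. The highest of all 24 values was the day 0 library of isolation 3.

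Notch3 fell in Krt8-/- cells by 1.2 ± 0.44 on the log2 scale on day 3 and by 1.44 ± 0.44 on day 7 against day 0 (edgeR adjusted p = 0.0265 and 0.0084). The day 7 call was lost without isolation 3 (log2 fold change -0.56, adjusted p = 0.377), and the day 3 call was lost without any 1 of the 3 isolations, with adjusted p up to 0.367 over all alternatives. From day 1 to day 3 it fell by 1.39 ± 0.44 (adjusted p = 0.0254), a call that was also lost without any 1 isolation, with adjusted p up to 0.169. The genotypes were not shown to differ in this change, since the genotype by day test called none of the 9 genes. Summed pericyte and muscle markers ranged from 15.3 to 44.2 CPM (day 0) and from 1628 to 2604 CPM (day 7) in Krt8-/- cells. Over the 24 libraries Acta2 in this list reached 2253 CPM, while Rgs5 stayed at or below 0.897 CPM. The part of these cell types in the course of Notch3 was not tested.

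Jag1, a Jagged ligand that is expressed by many epithelia, fell steeply on the first day and then recovered in part. In Krt8+/+ cells it measured 121, 104 and 80.6 CPM on day 0, 39.7, 17.1 and 29.9 CPM on day 1, 84.3, 64.5 and 45.8 CPM on day 3, and 40.4, 45.6 and 41.4 CPM on day 7. The Krt8-/- values were 149, 102 and 73.6 CPM on day 0, 26.8, 26.6 and 30.1 CPM on day 1, 47.4, 76.6 and 37.8 CPM on day 3, and 42.0, 40.0 and 38.0 CPM on day 7. All 6 libraries of day 1 lay below all 6 libraries of day 0. Summed fibroblast markers were also lower on day 1 than on day 0, and higher again on day 3. In Krt8+/+ cells they ranged from 294 to 989 CPM (day 0), 139 to 255 CPM (day 1) and 964 to 1732 CPM (day 3). In Krt8-/- cells the ranges were 330 to 727, 95.1 to 179 and 610 to 1275 CPM. On day 7 they were 872 to 1809 CPM (Krt8+/+) and 798 to 2981 CPM (Krt8-/-). Jag1 lay below its day 0 range on day 7. Of the 7 fibroblast markers, 2 were called higher and 3 lower on day 7 than on day 0 in Krt8+/+ cells. In Krt8-/- cells 2 were higher and 2 lower, and the sum does not show these directions. Of all genes, 28.6% were higher and 30.2% lower in Krt8+/+ cells, and 28.6% and 29.9% in Krt8-/- cells. Endothelial markers were at 5.77 to 11.1 CPM on day 1 in Krt8+/+ cells, below their day 0 range. The part of either cell type in the course of Jag1 was not tested.

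On day 1 Jag1 was 3.52-fold lower in Krt8+/+ cells (log2 fold change -1.81 ± 0.30, edgeR adjusted p = 3.73e-05) and 3.89-fold lower in Krt8-/- cells (-1.96 ± 0.30, adjusted p = 1.8e-05). Only 1 other gene of the 9, Dll1, was called in Krt8+/+ cells on day 1, where 54.7% of all genes were (26.2% higher and 28.5% lower). Dll1 and Notch1 were the others in Krt8-/- cells, where 50.6% of all genes were called (23.7% higher and 26.9% lower). From day 1 to day 3 Jag1 rose by 1.16 ± 0.29 on the log2 scale in Krt8+/+ cells (adjusted p = 0.00607) and by 0.95 ± 0.29 in Krt8-/- cells (adjusted p = 0.0229). Of all genes, 26.3% were called in this step in Krt8+/+ cells (14.4% higher and 11.9% lower) and 23.6% in Krt8-/- cells (13.4% higher and 10.2% lower). The rise lost its call in Krt8+/+ cells without isolation 2 (adjusted p = 0.0916), and in Krt8-/- cells without isolation 1 or 2, with adjusted p up to 0.301 over all alternatives.

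On day 3 Jag1 was still lower than on day 0 in Krt8-/- cells (log2 fold change -1.0 ± 0.29, edgeR adjusted p = 0.0063), though the highest day 3 library overlapped the lowest of day 0, and the call was lost without isolation 1 (adjusted p = 0.152). In Krt8+/+ cells the difference on day 3 was -0.65 ± 0.29 (adjusted p = 0.0626), and it passed the threshold with the isolation as a block (adjusted p = 0.0358). With 1 isolation left out it lay between -0.74 and -0.54, with adjusted p up to 0.209 over all alternatives. On day 7 Jag1 was 2.4-fold lower in Krt8+/+ cells (-1.26 ± 0.29, adjusted p = 0.000911) and 2.71-fold lower in Krt8-/- cells (-1.44 ± 0.29, adjusted p = 0.000275). From day 3 to day 7 it differed by -0.61 ± 0.29 in Krt8+/+ cells (adjusted p = 0.252). In that step edgeR called 0 of the 9 genes in either genotype, against 6.58% of all genes in Krt8+/+ cells (3.11% higher and 3.47% lower) and 10.5% in Krt8-/- cells (4.4% higher and 6.15% lower), with 1 (Jag1) and 0 at an unadjusted p under 0.05 in Krt8+/+ and Krt8-/- cells, and DESeq2 also called 0, with 1 at an unadjusted p under 0.05 in each.

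Jag2 (ENSMUSG00000002799, minus strand, chr12:112907819-112929776), the second Jagged ligand, was not called on day 1 and was lower on day 7 in both genotypes. In Krt8+/+ cells it measured 27.1, 23.3 and 21.0 CPM on day 0, 25.2, 10.9 and 19.1 CPM on day 1, 9.77, 12.8 and 10.6 CPM on day 3, and 13.5, 14.8 and 7.03 CPM on day 7. The libraries of day 1 reached into the range of day 0, and those of days 3 and 7 lay below it. The log2 fold change was -0.37 ± 0.30 on day 1 (edgeR adjusted p = 0.30), -1.11 ± 0.30 on day 3 (adjusted p = 0.00411) and -1.02 ± 0.30 on day 7 (adjusted p = 0.0067). The day 3 call was lost without isolation 1 (adjusted p = 0.0666).

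Jag2 in Krt8-/- cells measured 24, 25.1 and 16.8 CPM on day 0, 17.1, 14.6 and 18.4 CPM on day 3 and 14.7, 11.1 and 6.76 CPM on day 7. Day 3 overlapped day 0 and day 7 lay below it. The log2 fold change was -0.40 ± 0.30 on day 3 (edgeR adjusted p = 0.281) and -1.02 ± 0.30 on day 7 (adjusted p = 0.00694), a call that was lost without isolation 2 (adjusted p = 0.0766).

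Dll1, a Delta-like ligand, was nearly silent in fresh AEC2s and rose in culture. Krt8+/+ cells gave 1.46, 0.542 and 0 CPM on day 0 (23, 5 and 0 counts), 16.3, 1.25 and 9.44 CPM on day 1, 3.08, 3.5 and 4.31 CPM on day 3, and 9.39, 6.97 and 6.56 CPM on day 7. Krt8-/- cells gave 1.22, 0.810 and 0.773 CPM on day 0, 17.0, 2.53 and 10.7 CPM on day 1, 3.43, 3.86 and 5.99 CPM on day 3, and 6.63, 11.9 and 4.78 CPM on day 7. Isolation 2 was low on day 1 in both genotypes, and its Krt8+/+ library fell within the day 0 range. Summed AEC2 markers were also lower in isolation 2 on day 1, at 22000 CPM (Krt8+/+) and 20420 CPM (Krt8-/-). The other isolations were at 99160 to 116500 and 89430 to 108700 CPM. The part of this difference in the values of Dll1 was not tested.

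The rise of Dll1 was 12.1-fold in Krt8+/+ cells (log2 fold change 3.60 ± 0.83, edgeR adjusted p = 0.00107) and 10.6-fold in Krt8-/- cells (3.4 ± 0.81, adjusted p = 0.00154) on day 1. On day 3 it was 4.88-fold (adjusted p = 0.0228) and 4.65-fold (adjusted p = 0.024), and on day 7 10.2-fold (adjusted p = 0.00151) and 8.16-fold (adjusted p = 0.00281). The log2 values on day 7 were 3.36 ± 0.82 and 3.03 ± 0.80. The size of the rise in Krt8+/+ cells rested on single isolations, with log2 values between 3.05 and 4.26 (day 1), 1.63 and 3.80 (day 3) or 2.95 and 4.58 (day 7) when 1 was left out. The highest of each range was without isolation 1, which held most of the day 0 counts, and the lowest without isolation 3. The day 3 call was lost in Krt8+/+ cells without isolation 3 (adjusted p = 0.221), and in Krt8-/- cells without isolation 1 or 3, with adjusted p up to 0.184 over all alternatives. The gene overlaps the noncoding gene A930024N18Rik of the other strand, which was not analysed here, and the strand setting of the counting was not stated.

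**Figure D2:**
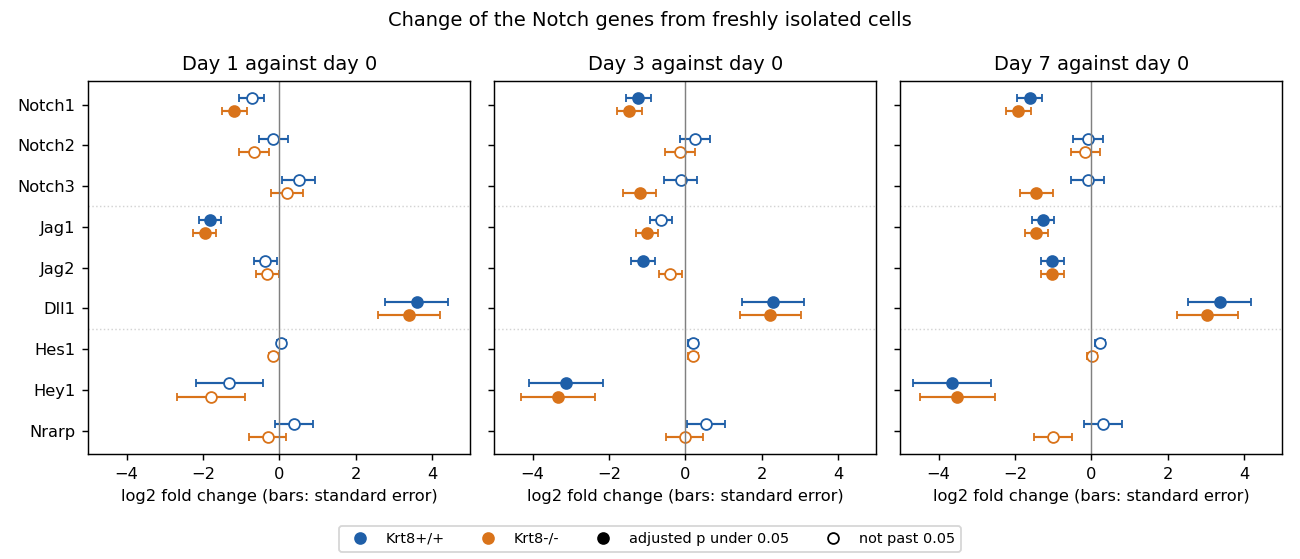
Log2 fold change against day 0 (x axis) with its standard error for the 9 genes (rows), in panels for days 1, 3 and 7, with colours for genotype. Filled points passed an adjusted p of 0.05 over all genes; Jag1 was already lower on day 1, Jag2 and Hey1 were not called on day 1, and Hes1 lay within 0.3 of 0 in all 6 contrasts.

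Hes1 (ENSMUSG00000022528, plus strand, chr16:30064384-30067796), a transcriptional repressor and a classical Notch target, had the smallest spread of the 9 genes. Across all 24 libraries it ranged from 43.7 to 62.7 CPM, with a median of 49.8 CPM and a coefficient of variation of 11.7%. In Krt8+/+ cells it measured 43.7, 45.4 and 48.9 CPM on day 0 and 47.3, 51.7 and 61.7 CPM on day 7. The log2 fold change on day 7 was 0.22 ± 0.12 in Krt8+/+ cells and 0.01 ± 0.12 in Krt8-/- cells (edgeR adjusted p = 0.135 and 0.95).

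The one step in which Hes1 was called was from day 1, at 47.7, 44.0 and 49.2 CPM, to day 3, at 61.0, 56.4 and 62.7 CPM, in Krt8-/- cells. These groups did not overlap, and the log2 fold change was 0.35 ± 0.12 (edgeR adjusted p = 0.0438). The call was lost under 7 of 8 alternatives, each left-out isolation among them, with adjusted p up to 0.234, and was kept with the isolation block. In Krt8+/+ cells the same step gave 0.14 ± 0.12 (adjusted p = 0.43).

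Hey1 (ENSMUSG00000040289, minus strand, chr3:8663359-8667256), a repressor of the HEY family that is abundant in endothelium, fell close to the detection limit. Krt8+/+ cells gave 3.69, 3.14 and 1.33 CPM on day 0, 1.98, 0.418 and 0.883 CPM on day 1, 0.262, 0.259 and 0.397 CPM on day 3, and 0.613, 0 and 0 CPM on day 7. Krt8-/- cells gave 3.45, 5.06 and 1.62 CPM on day 0, 2.15, 0.713 and 0.0779 CPM on day 1, 0.274, 0.482 and 0.211 CPM on day 3, and 0.286, 0.467 and 0.128 CPM on day 7. All libraries of days 3 and 7 lay below all of day 0.

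The log2 fold change of Hey1 was -3.12 ± 0.97 on day 3 and -3.65 ± 1.02 on day 7 in Krt8+/+ cells (edgeR adjusted p = 0.00986 and 0.00426). In Krt8-/- cells it was -3.33 ± 0.97 and -3.5 ± 0.98 (adjusted p = 0.00662 and 0.00441). The Krt8+/+ day 7 value was -2.94 without isolation 2 and -3.37 without isolation 3. Without isolation 1 the remaining day 7 libraries were both at 0 counts, and the fitted value of -7.92 then depends on the prior count and is no bound. All 4 calls were lost without isolation 2, with adjusted p = 0.0996 and 0.0832 in Krt8+/+ cells and 0.0725 and 0.0501 in Krt8-/- cells. On day 1 the change in Krt8-/- cells was -1.79 ± 0.89 (adjusted p = 0.0993), and it passed with the isolation as a block (-2.05, adjusted p = 0.0281) and without isolation 1 (adjusted p = 0.0344). Summed endothelial markers were also below their day 0 ranges on days 3 and 7, but did not fall steadily. They were at 5.77 to 11.1 CPM on day 1 and 10.2 to 20.5 CPM on day 3 in Krt8+/+ cells. In Krt8-/- cells they were at 6.225 to 10.85 CPM on day 1 and 10.5 to 15.1 CPM on day 3. The part of endothelial cells in the fall of Hey1 was not tested.

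Nrarp (ENSMUSG00000078202, plus strand, chr2:25180758-25183339), a short protein that is induced by Notch and limits it, did not pass the main test on any day. It measured 1.84, 3.79 and 2.88 CPM in Krt8+/+ cells on day 0 and 6.67, 2.65 and 1.06 CPM on day 7. In Krt8-/- cells it measured 4.68, 3.14 and 8.11 CPM on day 0 and 3.26, 3.04 and 1.66 CPM on day 7, and the days overlapped. The day 7 log2 fold change was 0.30 ± 0.50 in Krt8+/+ cells and -1.0 ± 0.50 in Krt8-/- cells (edgeR adjusted p = 0.623 and 0.0895), the latter passing with the isolation as a block (-1.12, adjusted p = 0.0477). With 1 isolation left out the Krt8-/- value lay between -1.31 and -0.32, with adjusted p up to 0.589 over all alternatives. The antisense gene Gm38287 held 6.19% as many counts as Nrarp, and without strand the reads of such a pair cannot be told apart.

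On day 3, 4 of the 9 genes were called in Krt8+/+ cells (Dll1 higher; Notch1, Jag2 and Hey1 lower) and 5 in Krt8-/- cells (Dll1 higher; Notch1, Notch3, Jag1 and Hey1 lower), against 54% of all genes in Krt8+/+ cells (26.1% higher and 27.8% lower) and 52% in Krt8-/- cells (25.4% higher and 26.6% lower). The median log2 fold change of the 9 genes on day 7 was -0.10 in Krt8+/+ cells and -1.02 in Krt8-/- cells, beside 0 and 0.0024 over all genes tested. The median gene was Notch3 in Krt8+/+ cells and Jag2 in Krt8-/- cells, though Jag2 changed by -1.02 in both. No difference between genotypes is read from this, since the genotype by day test called none of the 9 genes.

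Per kilobase of exon the order of the 9 genes in fresh Krt8+/+ AEC2s was led by Hes1 at 22.6 ± 1.31 CPM per kb (SD, n = 3) and Jag1 at 17.5 ± 3.46. The receptors Notch2 at 3.68 ± 1.77 and Notch1 at 2.62 ± 0.35 and the ligand Jag2 at 3.42 ± 0.44 CPM per kb followed, and the libraries of Notch2 and Jag2 overlapped. Nrarp at 1.10 ± 0.38 and Hey1 at 0.833 ± 0.378 CPM per kb overlapped each other, as did Notch3 at 0.202 ± 0.0607 and Dll1 at 0.158 ± 0.175. With the longest transcript as the length, Jag2, Notch1 and Notch2 took ranks 3, 4 and 5, and Hey1 stood above Nrarp.

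On day 7 Hes1 (26.3 ± 3.63 CPM per kb) and Jag1 (7.29 ± 0.47) still led in Krt8+/+ cells, followed by Notch2 (3.48 ± 0.56). Dll1, last on day 0, was the fourth at 1.81 ± 0.36 CPM per kb, in a range that overlapped that of Jag2 at 1.69 ± 0.60. With the longest transcript as the length, Jag2 took rank 4 and Dll1 rank 5. Notch1 was at 0.859 ± 0.12, Notch3 at 0.191 ± 0.0378 and Hey1 at 0.0625 ± 0.108 CPM per kb.

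**Figure D3:**
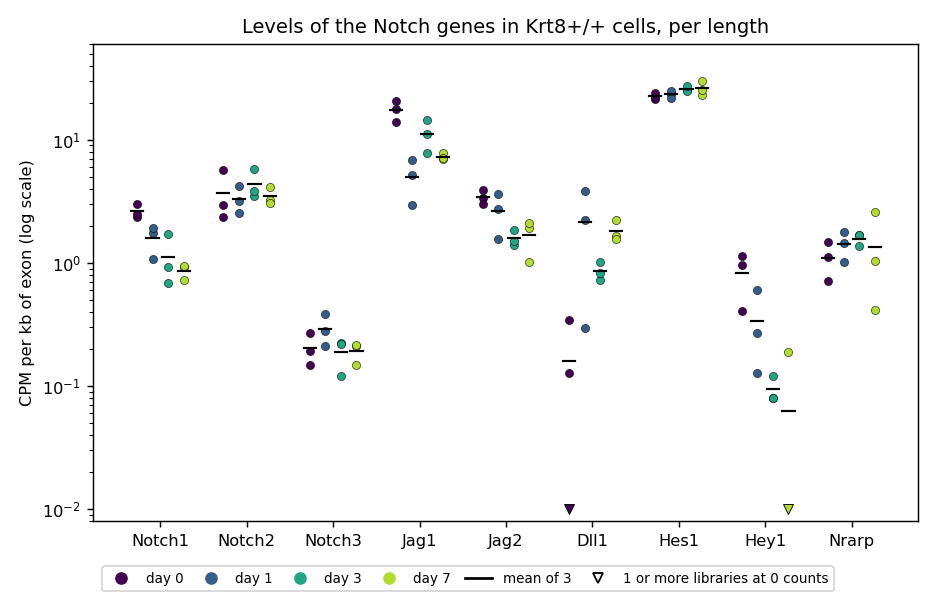
Level per kilobase of exon (y axis, CPM per kb on a log scale) of the 9 genes in Krt8+/+ cells, with 1 point per library, colours for days 0, 1, 3 and 7 and bars for the mean of 3. Triangles mark groups with libraries at 0 counts, which a log axis cannot show; Hes1 is highest throughout and Dll1 passes from the lowest on day 0 to the level of Jag2 on day 7.

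No Notch gene was called between genotypes. Krt8-/- cells were compared with Krt8+/+ cells on each day, over the mean of days 1 to 7, and for the genotype by day interaction, and edgeR called 0 of the 9 genes in each, with 0 at an unadjusted p under 0.05. DESeq2 called 0, also with 0 at an unadjusted p under 0.05. With the isolation as a block 0 were called, and 1 gene had an unadjusted p under 0.05, on day 3. Of all genes, 0.0277% were called on day 0 (0.0111% higher and 0.0166% lower in Krt8-/- cells). The share was 0.0166% on each of days 1, 3 and 7 (0% higher and 0.0166% lower), 0.0443% over days 1 to 7 (0.0222% higher and 0.0222% lower) and 0.00554% for the interaction.

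Over days 1 to 7 the log2 difference, Krt8-/- minus Krt8+/+, was smallest for Hes1 at 0.05 ± 0.07. It was -0.13 ± 0.19 for Notch1, -0.25 ± 0.22 for Notch2 and -0.31 ± 0.25 for Notch3. For the ligands it was -0.14 ± 0.17 for Jag1, 0.14 ± 0.17 for Jag2 and 0.15 ± 0.40 for Dll1. For the targets Hey1 and Nrarp it was 0.11 ± 0.57 and 0.07 ± 0.28, so that the error left a wider range for the scarce genes.

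The 3 libraries of 1 genotype did not overlap those of the other for 0 of the 9 genes on days 0 and 1, for 3 on day 3 and for 1 on day 7, beside 6.88%, 5.79%, 11% and 5.54% of all genes on days 0, 1, 3 and 7. None of these was a call, and nothing particular to the 9 genes is read from so few cases. On day 3 Jag2 was at 9.77 to 12.8 CPM in Krt8+/+ cells and at 14.6 to 18.4 CPM in Krt8-/- cells (log2 difference 0.60 ± 0.30). Hes1 (0.19 ± 0.12) and Nrarp (0.37 ± 0.49) were likewise higher in Krt8-/- cells on day 3, and Notch3 was lower on day 7 (-0.74 ± 0.44). All 4 had an edgeR adjusted p of 1.

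The libraries of the genotypes also lay apart in other measures. Summed markers of club and ciliated airway cells on day 0 ranged from 5788 to 11900 CPM (Krt8+/+) and from 14220 to 19590 CPM (Krt8-/-). None of the 5 markers was called between genotypes on that day, where 0.0277% of all genes were. Xist lay between 62.4 and 79.5 CPM in the Krt8+/+ libraries of isolation 1, whose Krt8-/- libraries held Y-linked genes at 172.8 to 191.1 CPM, so that sex and genotype cannot be told apart in that isolation. In isolation 2 both genotypes held Xist at 42.7 to 154.5 CPM and Y-linked genes at 0.241 CPM or less. In isolation 3 both held Y-linked genes at 174.2 to 228.8 CPM. Leaving out an isolation therefore also changed the mix of sexes. The part of airway cells or of sex in the values of the 9 genes was not tested.

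**Figure D4:**
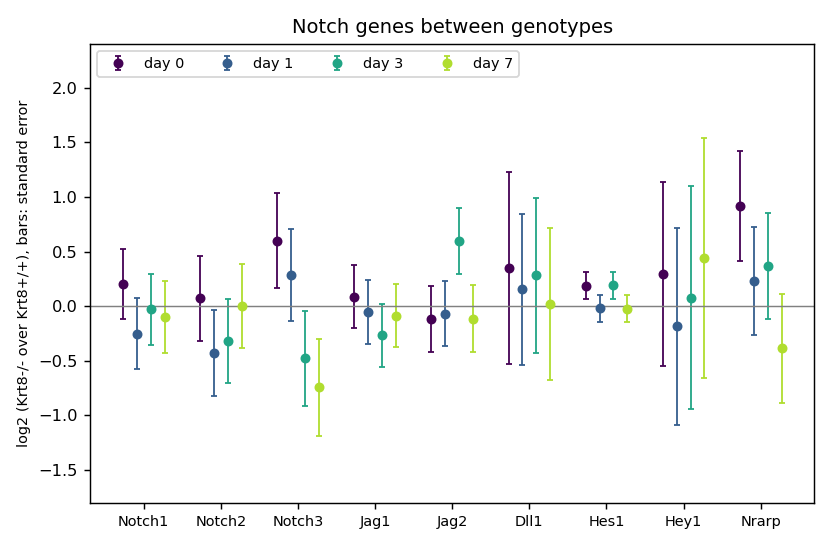
Log2 difference between Krt8-/- and Krt8+/+ cells (y axis) with its standard error for the 9 genes (x axis), with colours for days 0, 1, 3 and 7. All points lie between -0.74 and 0.92, none passed an adjusted p of 0.05, and the bars are widest for Dll1 and Hey1.

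The other genes of the pathway were taken from lists by role, with 44 genes of which 40 were tested. On day 7, 14 rose and 16 fell in Krt8+/+ cells, and 14 rose and 17 fell in Krt8-/- cells. Of all genes, 28.6% were higher and 30.2% lower in Krt8+/+ cells, and 28.6% and 29.9% in Krt8-/- cells. The day 7 counts by role below stand beside these same shares, and nothing particular to a role is read from them. None of the 40 was called between genotypes over days 1 to 7, beside 0.0443% of all genes. The median log2 fold change of the 40 genes on day 7 was -0.14 in Krt8+/+ cells.

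Among the remaining receptor and ligands, 3 of the 4 tested rose and 1 fell in both genotypes on day 7. Dll4, a Delta-like ligand known from sprouting endothelium, measured 6.29, 7.47 and 3.32 CPM in Krt8+/+ cells on day 0 and 0.0681, 0.249 and 0 CPM on day 7, a log2 fold change of -5.74 ± 1.11 (edgeR adjusted p = 0.000214, and -6.76 without isolation 2). In Krt8-/- cells it measured 5.18, 4.66 and 5.18 CPM on day 0 and 0 in all 3 libraries of day 7, at least 76.8-fold lower when 3 counts in the whole group are taken as the floor. Dll1 and Dll4 thus moved in opposite directions. The endothelial markers fell with Dll4, and their part in this was not tested.

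Notch4, the fourth receptor, rose from 0.254, 0.325 and 0 CPM on day 0 to 1.23, 1.08 and 2.32 CPM on day 7 in Krt8+/+ cells (log2 fold change 2.89 ± 0.75, edgeR adjusted p = 0.00245, and 1.99 to 3.58 with 1 isolation left out). Dlk1, a noncanonical ligand, was highest on day 3 in Krt8+/+ cells at 6.76, 4.08 and 6.69 CPM, against 0.382, 0 and 0 CPM on day 0. On day 7 its log2 fold change was 2.43 ± 0.90 (adjusted p = 0.0247), a call that was lost without isolation 3 (adjusted p = 0.187). Dlk2, a relative of Dlk1, had 2 counts on day 0 and 49 on day 7 in Krt8+/+ cells, a ratio of 19.9 with an exact 95% interval of 5.22 to 169 that covers counting error only.

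Of the 5 genes that add sugars to the receptors, 2 rose and 1 fell in each genotype on day 7. Rfng, a fringe glycosyltransferase, was 3.02-fold lower in Krt8+/+ cells (log2 fold change -1.59 ± 0.13, edgeR adjusted p = 2.1e-09). Poglut1 and Pofut1, which add O-linked glucose and fucose, rose by 0.63 ± 0.13 and 0.50 ± 0.18 (adjusted p = 0.000316 and 0.0209), the latter without a call when isolation 1 or 3 was left out, with adjusted p up to 0.184. Lfng measured 4.71, 7.15 and 1.88 CPM on day 0 and 8.71, 7.55 and 4.31 CPM on day 7, without passing the test (0.58 ± 0.40, adjusted p = 0.22).

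Of the 10 genes of receptor cleavage, 3 rose and 4 fell in Krt8+/+ cells and 2 rose and 4 fell in Krt8-/- cells on day 7. The 3 with the largest change were gamma-secretase subunits, Aph1c at -1.33 ± 0.18, Psen2 at -1.07 ± 0.24 and Psenen at -1.01 ± 0.17 on the log2 scale in Krt8+/+ cells (edgeR adjusted p = 2.74e-06, 0.000745 and 3.85e-05). On day 1, 8 of the 10 were lower and 1 higher in both genotypes, beside 28.5% lower and 26.2% higher of all genes in Krt8+/+ cells and 26.9% and 23.7% in Krt8-/- cells. Of the 4 ubiquitin ligases that act on ligand endocytosis, 3 fell in both genotypes, with Neurl1b at -2.52 ± 0.68, Mib2 at -1.42 ± 0.20 and Neurl1a at -0.91 ± 0.26 in Krt8+/+ cells (adjusted p = 0.00313, 4.18e-06 and 0.00488). The calls of Neurl1b and Neurl1a were lost without isolation 2 (adjusted p = 0.0779 and 0.102).

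In the nuclear complex the coactivator Maml3 had the largest change, from 49.5, 33.0 and 31.1 CPM on day 0 to a mean of 3.79 CPM on day 7 in Krt8+/+ cells (log2 fold change -3.33 ± 0.35, edgeR adjusted p = 8.14e-08). The acetyltransferase Ep300 fell by 1.14 ± 0.24 (adjusted p = 0.00033), and Maml2 rose by 0.82 ± 0.26 (adjusted p = 0.00925, and 0.109 without isolation 2). Rbpj, the DNA-binding partner, measured 20.4, 21.9 and 21.8 CPM on day 0 and 20.0, 24.2 and 37.9 CPM on day 7 in Krt8+/+ cells (0.36 ± 0.22, adjusted p = 0.176). In Krt8-/- cells it rose by 0.73 ± 0.23 (adjusted p = 0.00911), and the high library of day 7 was isolation 3 in both genotypes.

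Of the 9 negative regulators, 5 rose and 3 fell in both genotypes on day 7. Numbl, a relative of the endocytic adaptor Numb, and the ubiquitin ligase Dtx4 rose by 1.80 ± 0.29 and 1.59 ± 0.27 on the log2 scale, and Dtx3 fell by 1.07 ± 0.20, in Krt8+/+ cells (edgeR adjusted p = 2.13e-05, 3.53e-05 and 0.000123). Of 5 further targets only Heyl and Dtx1 had enough counts for the test. Heyl, a HEY family repressor, fell from 5.66, 1.41 and 2.10 CPM to 0.340, 0.166 and 0.464 CPM in Krt8+/+ cells (-3.20 ± 1.03, adjusted p = 0.0121), a call lost without isolation 1 or 2, with adjusted p up to 0.144. In Krt8-/- cells it was at 0 in all 3 libraries of day 7, at least 44.2-fold lower than on day 0. Hes5 had 0 counts in all 24 libraries, and Hey2 had at most 12 a library.

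**Figure D5:**
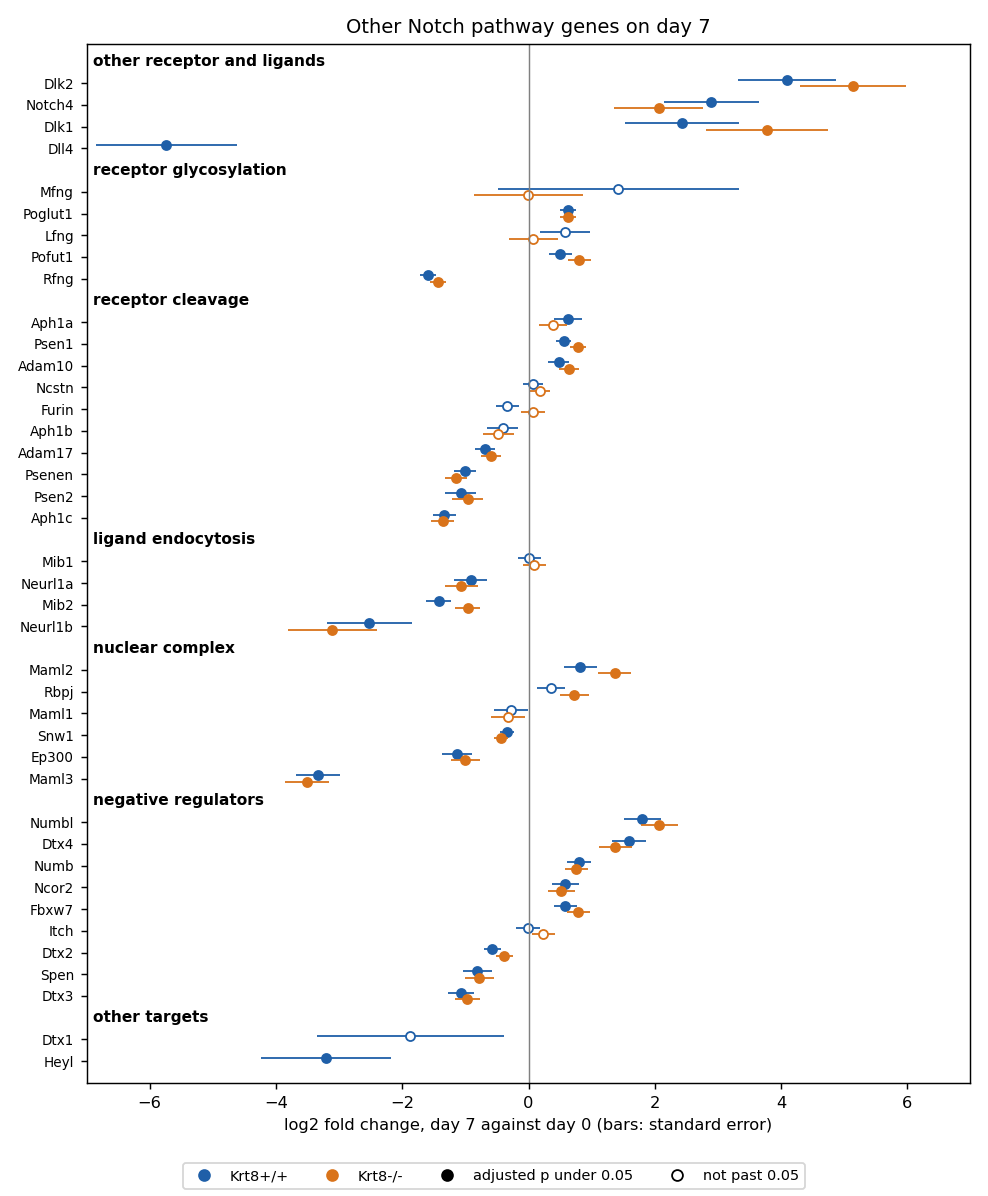
Log2 fold change on day 7 against day 0 (x axis) with its standard error for the other pathway genes that were tested, grouped by role, with colours for genotype and filled points for an adjusted p under 0.05. Dll4, Heyl and Dtx1 of Krt8-/- cells are left out because all 3 day 7 libraries were at 0; Maml3 and Neurl1b are far to the left in both genotypes.

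Likeness of pattern was measured as Pearson's r over the 8 group means of log2 CPM, which share libraries and are led by day. Among the 9 genes Notch1 was most like Hey1 (r = 0.977) and Jag2 (r = 0.913), and Jag1 and Dll1 ran opposite (r = -0.896). Over all genes tested the 3 most like Notch1 were Fmc1 (r = 0.998), Gm5514 and Acsl1, and those most like Jag1 were Vstm4 (r = 0.992), Sin3a and Gm43792. For Dll1 they were Gm6756 (r = 0.996), Fjx1 and Zfp428. For Jag2 they were Rasip1 (r = 0.988), Kdf1 and Crb3, and for Hey1 Prr18 (r = 0.994), Abca8a and 1700113A16Rik. For Hes1 the highest was Vamp5 (r = 0.959), for Notch2 Ylpm1 (r = 0.962), for Notch3 Wfikkn1 (r = 0.972) and for Nrarp Tspan1 (r = 0.949).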

How the data were processed

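Bulk RNA-seq of 24 libraries was analysed. The authors deposited 1 table of raw counts per gene. The submitters' processing notes name cutadapt 2.3, STAR 2.7.8a, RSEM 1.3.3 and the GRCm38 build, with no role or order, so the whole-number counts may be rounded estimates. The strand setting is not given in the sources used here. Groups and days were taken from the labels, and the isolation number from the date that ends each label. Genes were kept with filterByExpr (minimum count 10, minimum total 15), scaled by TMM and tested in 1 fit over the 8 groups with 16 residual degrees of freedom (R 4.3.3, edgeR 4.0.16, limma 3.58.1, glmQLFTest, Benjamini-Hochberg adjustment over 18046 genes). The SE of a log2 fold change was its absolute value divided by the square root of the F statistic. It therefore rests on the spread estimated over all 24 libraries and not on the compared groups alone. The fit was tested on simulated data. The members and lists were chosen with earlier results of these data known. Named were all 9 members, the up to 3 genes of each other list past 0.05 with the largest log2 change in Krt8+/+ cells on day 7, and Notch4, Dll4, Dlk1, Lfng, Rbpj, Hes5, Hey2 and Heyl.

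Isolation numbers pair the libraries, since the design text gives 3 isolation rounds, each with both genotypes. Deviations from group means correlated at 0.287 to 0.548 between same-numbered libraries of the genotypes on day 7 and at 0.0573 to 0.439 on day 0. P-values measure the spread between these 3 isolations. The alternatives were DESeq2 size factors, the DESeq2 test (version 1.42.0), no filter on low counts, a block for the isolation, leaving out every isolation in turn, and the compared groups alone. The same alternatives for the other pathway genes were added after seeing the data. The 5 rows that name no Ensembl gene held 0 counts. Log2 CPM for likeness used a prior count of 2.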

Additional observations from a re-analysis of the deposited data

How the results depend on the processing

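The counts of called genes stayed within 1.5 times under most alternatives. Leaving out an isolation gave 2 to 3 calls on day 3 against day 0 in each genotype. With all isolations there were 4 in Krt8+/+ and 5 in Krt8-/- cells. From day 1 to day 3, leaving 1 out gave 0 to 1 in each genotype (1 and 3 with all). Calls over all genes fell as well. In Krt8+/+ cells, 7664 to 8427 genes were called on day 3 against day 0, beside 9736 with all. From day 1 to day 3 they were 2614 to 3085, beside 4740. In Krt8-/- cells the numbers were 7264 to 7890 beside 9389, and 1842 to 2691 beside 4252. From day 1 to day 3 the DESeq2 test called 2 genes in Krt8+/+ cells. Jag2 was the one added (adjusted p = 0.0412), and its adjusted p reached 0.535 under other alternatives. In the same step the fit without a filter on low counts called 1 gene in Krt8-/- cells.

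With the isolation as a replicate block, the calls of Jag1 in Krt8+/+ cells on day 3 (adjusted p = 0.0358), Hey1 in Krt8-/- cells on day 1 (0.0281) and Nrarp in Krt8-/- cells on day 7 (0.0477) were gained, and the pairing changed no other call among the reported changes of the 9 genes. The compared groups alone also added Jag1 in Krt8+/+ cells on day 3 (adjusted p = 0.0401).

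Changes that were not called turned direction when 1 isolation was left out. Without each isolation in turn, the log2 change of Notch2 in Krt8+/+ cells lay between -0.36 and 0.10 (day 1), -0.0519 and 0.86 (day 3) or -0.28 and 0.43 (day 7), and in Krt8-/- cells between -0.40 and 0.22 (day 3) or -0.35 and 0.31 (day 7). Notch3 lay between -0.36 and 0.38 (day 3) or -0.30 and 0.093 (day 7) in Krt8+/+ cells, and between -0.0508 and 0.74 (day 1) in Krt8-/- cells. Nrarp lay between -0.0615 and 0.70 (day 1) or -0.86 and 0.78 (day 7) in Krt8+/+ cells, and between -0.63 and 0.41 (day 1) or -0.26 and 0.52 (day 3, 0.0076 with no filter) in Krt8-/- cells. Hes1 in Krt8-/- cells on day 7 ranged from -0.0037 to 0.0598 and was -0.0026 with the compared groups alone. The genotype difference over days 1 to 7 ranged from -0.29 to 0.0166 for Notch1, -0.32 to 0.0536 for Jag1, -0.018 to 0.31 for Dll1, -0.45 to 1.47 for Hey1 and -0.0157 to 0.27 for Nrarp. The cause was not tested. Depth limits Notch3, Hey1, Dll1 on day 0 and Nrarp, which had few counts a library.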
